A study of Danio rerio with 25 samples.

Results

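The genes described here are the 200 whose transcript level varied least over the 25 libraries of the zebrafish series. They were chosen from the deposited counts by a fixed rule. Each count was divided by the total of its library and given as counts per 1000000 (CPM), and genes at or above 20 CPM in all 25 libraries were kept. This left 4223 of the 32520 genes in the tables. The 200 of these with the lowest coefficient of variation (CV, the SD over the 25 libraries divided by the mean) are called the stable genes below. All 200 identifiers could be paired with a gene symbol, and symbols are spelled as in the table of gene names used. Because the rule read the level in every library, the levels and spreads of the stable genes are descriptions of what was chosen and carry no test.

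RNA was taken from whole larvae, so each level is an average over all tissues, and fewer cells of a type cannot be told apart from less RNA per cell. The DEX course holds 3 libraries on each of 5 days, D3, D4, D5, D6 and D7, from larvae that carried Tg(Ola.Sp7:nlsGFP), a medaka osterix promoter driving green fluorescent protein in osteoblast nuclei, and that were kept in dexamethasone (DEX), a synthetic glucocorticoid used to model bone loss. The labels count these days from the addition of DEX, whereas the study's methods count them from fertilization, and no library of untreated larvae of these days was analysed here, so exposure and normal growth cannot be told apart within the course. The second table holds 5 libraries of cdkn1a crispants and 5 libraries of wild-type (WT) larvae, with no day in the labels. The study's methods give the same 5 days after fertilization for these samples and do not assign libraries to days. Whether age differed between the libraries of this table is therefore unknown. Crispants are F0 larvae injected with Cas9 protein and a pool of guides against cdkn1a, a cell cycle inhibitor, and are therefore mosaic. Libraries of the course had 13685297 to 21812411 counts and those of the second table had 30330699 to 38467088 counts, so a gene at 20 CPM had 274 to 769 counts. The table, its depth and its treatment cannot be told apart. On every day of the course the c library differed more from the a and b libraries than these did from each other. The squared difference of counts, over that of sampling alone, was 111 and 120 for pairs with the c library of D7, against 5.43 for a with b. On D5 it was 99.4 and 58.1, against 28.4. The crispant and WT libraries fell into 2 sets, which were defined from the data. The first held crispants 1 to 3 with WT 1 to 3 and the second crispants 4 and 5 with WT 4 and 5. The columns of crispants 4 and 5 carry header names that already occur in the table, so the crispant numbers are names only. The labels do not say whether replicates came from separate clutches, and p-values then measure the spread between these libraries.

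Genes that nearly every cell needs, for protein synthesis, membrane traffic, protein turnover or energy, are often called housekeeping genes. A few of them, such as those for actin, GAPDH, elongation factor 1 alpha and ribosomal proteins, serve as references in quantitative PCR, where a change of the reference would be read as an opposite change of the target. A housekeeping role does not by itself make a transcript level constant, since a level relative to the library total also moves when other abundant transcripts rise or fall.

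The CV of the stable genes ran from 7.37% to 13.9% with a median of 12.4%, beside a median of 27.5% and a highest value of 173% over the 4223 genes. The highest of the 25 libraries was 1.28 to 2.17 times the lowest (median 1.60 times), and in 197 of the 200 this ratio was under 2, as it was in 699 of the 4223. The 5 genes just inside the limit were SCAMP2 (13.83%), UBE2Q2 (13.84%), UBE2V2 (13.85%), TRA2A (13.86%) and si:dkey-199f5.8 (13.86%). Just outside it were PICALM, KMT5B, nipsnap2, CPE and AMPD2, with CVs of 13.90% to 13.94%. The limit therefore divides genes that hardly differ in spread, and CPE, which encodes a prohormone-processing carboxypeptidase, was left out although its CV within the crispant and WT libraries was only 4.18%.

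The stable genes were mostly of low to middling level. Their mean over the 25 libraries had a median of 50.1 CPM, beside 67.5 CPM for the 4223 genes, and 50% of them lay under 50 CPM, beside 30.3% of the 4223. When the 4223 genes were divided into 4 bins of equal size by mean level, the stable genes numbered 90, 51, 35 and 24 from the lowest bin to the highest, and the median CV was 22.9%, 26.9%, 29.8% and 32.5% in the same order. CPM is not divided by transcript length, so these are levels per library and do not rank genes by abundance. The floor also shapes the bins, since a variable gene of low mean falls under 20 CPM in some library and is left out. Means in the lowest bin began at 24.8 CPM, so its low CVs and many stable genes follow in part from the rule. Counting error alone would give the stable genes CVs of 0.316% to 4.46%, and the measured CV was 2.08 to 43.5 times that (median 3.93).

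**Figure D1:**
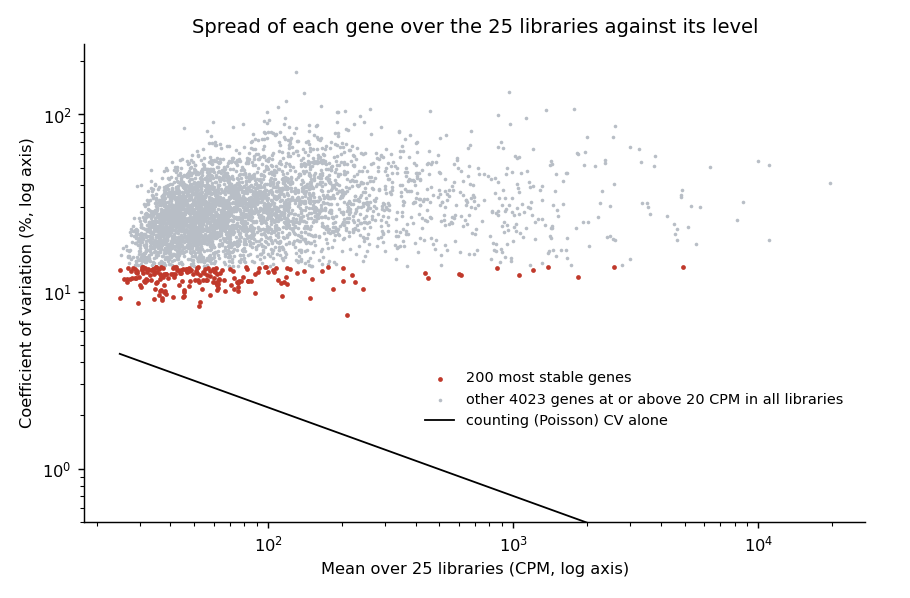
Coefficient of variation over the 25 libraries (%, log axis) against mean level (CPM, log axis) for the 4223 genes at or above 20 CPM in all libraries, with the 200 stable genes in red and the spread that counting alone would give as a line. The stable genes form the lower edge of the cloud, between 7.37% and 13.9%, and lie above the line at every level.

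The lowest CV belonged to C19H6orf62 (ENSDARG00000093406), a gene named only after an open reading frame. It measured 212, 215 and 202 CPM on D3, 227, 212 and 196 CPM on D4, 204, 188 and 189 CPM on D5, 197, 223 and 240.4 CPM on D6 and 229, 232 and 239 CPM on D7. In the second table it measured 208, 188, 191, 208 and 202 CPM in crispants, against 213, 213, 198, 215 and 222 CPM in WT larvae. Its mean was 211 ± 15.5 CPM (SD, n = 25), with the highest library, the c library of D6, only 1.28 times the lowest. The D7 libraries lay above those of every other group except D6, and the other groups overlapped. The next gene was dlg1a (ENSDARG00000009677), a PDZ scaffold of cell junctions and polarity, with a CV of 8.27% around 52.1 CPM. It measured 50.7, 44.4 and 57.9 CPM on D3, 57.8, 51.9 and 49.4 CPM on D4, 49.97, 48.3 and 47.2 CPM on D5, 49.1, 57.4 and 53.3 CPM on D6 and 51.9, 58.8 and 48.3 CPM on D7. In the second table it measured 48.7, 48.1, 45.8, 55.8 and 58.9 CPM in crispants, against 53.01, 53.4, 49.96, 56.7 and 56.01 CPM in WT larvae. Crispants 1 to 3 were the lowest of these and crispants 4 and 5 among the highest, and WT 4 and 5 were above WT 1 to 3.

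NAA30 (ENSDARG00000079686), the catalytic subunit of the NatC N-terminal acetyltransferase, had a CV of 8.61%. Its levels were 30.04, 31.5 and 32.2 CPM on D3, 34.4, 33.2 and 30.9 CPM on D4, 28.98, 26.8 and 31.1 CPM on D5, 27.4, 29.5 and 33.3 CPM on D6 and 25.7, 25.6 and 26.8 CPM on D7. The second table gave 29.3, 27.1, 27.1, 27.3 and 32.96 CPM in crispants, against 27.4, 28.3, 28.98, 30.96 and 29.3 CPM in WT larvae. The D7 libraries were at the low end of the course and the a library of D4 was the highest, and the highest library was 1.34 times the lowest. TRPC4AP (ENSDARG00000018840), which couples substrates to a cullin 4 ubiquitin ligase, had a CV of 8.73%, with 56.5, 55.6 and 55.4 CPM on D3, 56.5, 46.2 and 57.1 CPM on D4, 44.2, 55.4 and 55.8 CPM on D5, 46.1, 51.9 and 50.6 CPM on D6 and 42.6, 45.7 and 55.98 CPM on D7. Crispants and WT larvae overlapped in this gene, at 53.2, 57.5, 54.7, 54.7 and 53.7 CPM in crispants, against 56.3, 59.8, 55.7, 52.3 and 49.99 CPM in WT larvae. Its a libraries of D5, D6 and D7 were lower than the c libraries of the same days.

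The remaining genes of lowest CV belong to several compartments. MCRS1 (ENSDARG00000020840), a subunit of chromatin complexes with histone acetyltransferase or remodelling activity, had a CV of 8.96% and ran from 32.01 to 42.2 CPM. Slc35a4 (ENSDARG00000062379), a solute carrier related to nucleotide sugar transporters, had a CV of 9.07%. TMBIM6 (ENSDARG00000077934), the endoplasmic reticulum protein Bax inhibitor 1, had a CV of 9.16% around 148 CPM. In all 3 the highest library was at most 1.54 times the lowest. Kdm4ab (ENSDARG00000019103), a histone lysine demethylase, had a CV of 9.20%, PRKAG2 (ENSDARG00000012625), the regulatory gamma subunit of AMP-activated kinase, 9.25%, and EPB41L5 (ENSDARG00000032324), a FERM-domain protein of epithelial polarity, 9.30%. PRKAG2 was close to the floor, with 21.1 CPM in its lowest library and 28.5 CPM in its highest.

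**Figure D2:**
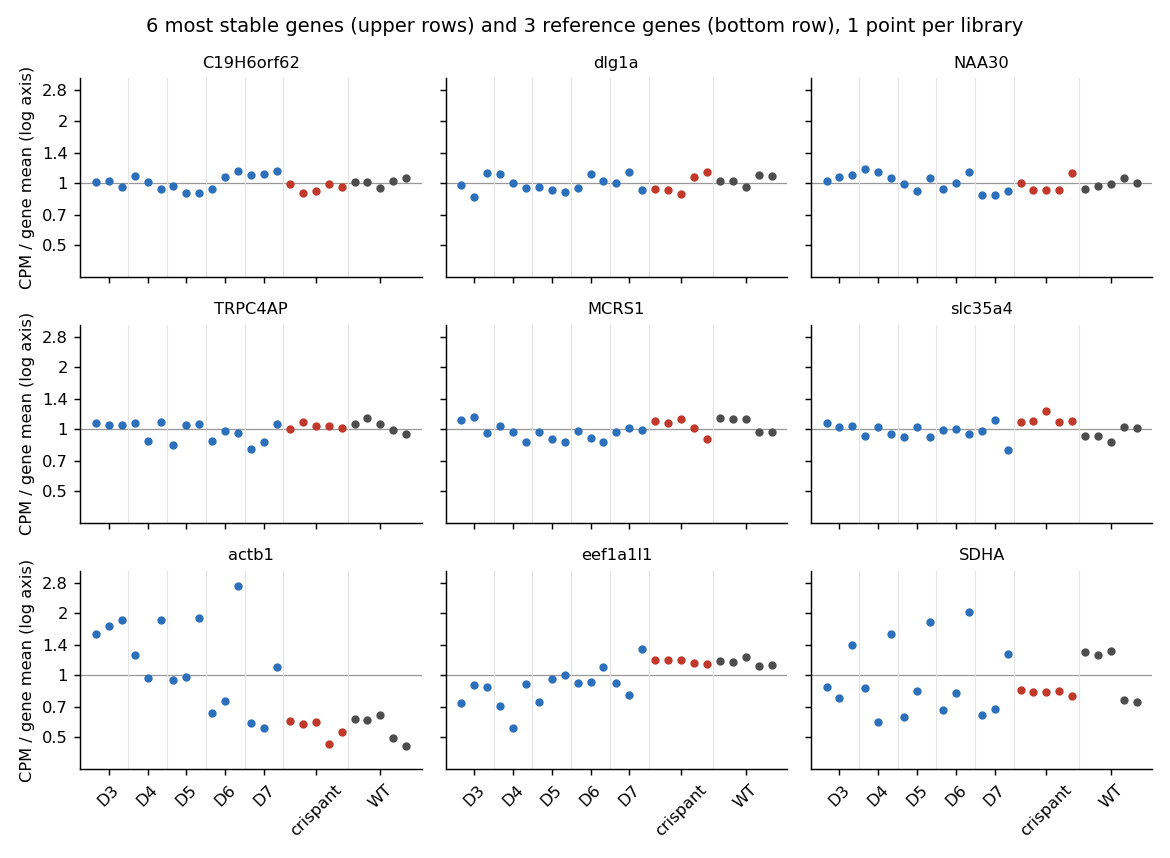
Level of each gene in each of the 25 libraries divided by the gene's own mean (log axis), for the 6 stable genes of lowest CV and for the reference genes actb1, eef1a1l1 and SDHA, with 1 point per library, the DEX course in blue, crispants in red and WT larvae in grey. The 6 stable genes stay near 1 throughout, with library ratios of 1.28 to 1.54, whereas actb1 spans 835 to 4938 CPM.

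The stable genes of highest mean level were those for MT-CO2, rpl7a, RPL8, rps3 and RPL18. MT-CO2 (ENSDARG00000063908) is the mitochondrially encoded subunit of cytochrome oxidase that takes up electrons from cytochrome c. It measured 3623, 3773 and 4866 CPM on D3, 4803, 5027 and 4618 CPM on D4, 5393, 4504 and 5346 CPM on D5, 4728, 4683 and 5546 CPM on D6 and 5822, 6306 and 6846 CPM on D7. In the second table it measured 4626, 4706, 4824, 4737 and 4783 CPM in crispants, against 4769, 4477, 4965, 4779 and 4826 CPM in WT larvae. MT-CO2 had the lowest CV of all stable genes in the second table, 2.73%, and the highest in the course, 16.99%, where all D7 libraries lay above all others. RPL8 (ENSDARG00000014867), rpl7a (ENSDARG00000019230) and RPL18 (ENSDARG00000029533) encode proteins of the large ribosomal subunit and rps3 (ENSDARG00000103007) one of the small subunit. RPL8 measured 1691, 1903 and 1719 CPM on D3, 1596, 1791 and 1654 CPM on D4, 1850.3, 1715 and 1703 CPM on D5, 2087, 1829 and 1626 CPM on D6 and 2282, 2110.3 and 2314 CPM on D7. In the second table RPL8 measured 2077, 2090.4, 2119, 1638 and 1584 CPM in crispants, against 1792, 1793, 1937, 1593 and 1648 CPM in WT larvae. Here crispants 1 to 3 lay above every WT library and crispants 4 and 5 among or below WT 4 and 5. Rpl7a, rps3 and RPL18 each had their highest library in the c library of D7, at 3800.2, 1942 and 1723 CPM beside means of 2569.6, 1391 and 1210.1 CPM. At the other end, TRAPPC12 (24.8 CPM), a tether of transport vesicles, PRKAG2 (24.95 CPM), the zinc finger protein gene ZNF131 (25.8 CPM), protein kinase D2 (26.6 CPM) and rpap3 (26.6 CPM), a cochaperone subunit, were the least counted, and none fell under 20.7 CPM in any library.

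Stable genes were compared with lists of genes of known function. Of the 4223 genes, 4.74% were stable by construction, and 32 of the 200 belonged to any of 28 lists. The share of the 4223 in any list was not counted. In protein synthesis, 6 of 77 cytosolic ribosomal protein genes at the floor were stable. These were RPL8 (12.04%), RPL17 (12.4%), rplp2l (12.5%), RPL18 (13.2%), rpl7a (13.8%) and rps3 (13.8%). The list as a whole had a median CV of 22.2% and reached 107% in RPL9, with 35 of the 77 in the lowest quartile of CV of all genes at the floor and 5 in the highest. Of the translation initiation factors 3 of 41 were stable (median CV 24.8%), namely EIF4EBP2 (10.3%), a repressor that binds the cap-binding protein, eif3ea (11.9%), a subunit of the factor that loads the small ribosomal subunit, and eif4a1b (12.4%), the RNA helicase of the cap-binding complex. Of the mitochondrial ribosomal proteins 2 of 12 were stable, MRPS2 (12.9%) and MRPL23 (13.3%), and of the cytosolic aminoacyl-tRNA synthetases 0 of 15 (median CV 37.2%).

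In the nucleus, PRPF39 (9.44%), a component of the U1 snRNP, was the single stable gene of 28 core splicing genes, whose median CV was 30.9%. SRSF6 (11.4%) and TRA2A (13.9%), both SR-type splicing regulators, were the stable genes of 35 SR and hnRNP genes (median CV 33.5%). The range within that list was wide, since HNRNPL had a CV of 70.6%. Of the chromatin genes 2 of 65 were stable, and both were demethylases of the same family, kdm4ab and kdm4c (11.9%). KPNA5 (11.2%), an importin alpha, was 1 of 26 for nuclear pore and transport. No gene was stable among 16 of RNA polymerase II and its general factors, 17 DEAD and DEAH box helicases and 15 of mRNA decay.

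In protein turnover the lists differed in spread. Of the cullins and their partners, which form the scaffolds of ubiquitin ligases, 3 of 18 were stable, and the list had a median CV of 18.3%. They were 2 genes that share the symbol CUL3, ENSDARG00000038967 (10.1%) and ENSDARG00000100108 (13.3%), and COPS2 (12.5%), a subunit of the COP9 signalosome that removes NEDD8 from cullins. Of the ubiquitin-conjugating enzymes 4 of 26 were stable (median CV 23.6%), namely UBE2Z (12.5%), UBE2G2 (13.3%), UBE2Q2 and UBE2V2. By contrast 0 of 33 proteasome subunits were stable, and their median CV was 48.2%, with PSMD7 the lowest at 31.3%. The proteasome gene psmc1b, at 79.9%, averaged 264 CPM on D7 and 71.8 CPM on D3, and 53.5 CPM in crispants and 47.8 CPM in WT larvae (n = 3 per day and 5 per group). Of the 21 ubiquitin-specific proteases 0 were stable (median CV 28.1%).

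In membrane traffic the stable genes of these lists were ARL1 (12.5%) and RAB2A (13.6%) of 33 Rab, Arf and Arl GTPases, SNX4 (10.2%) and VPS45 (12.03%) of 37 retromer, sorting nexin, clathrin and adaptor genes, COPZ2 (13.8%) of 15 coat proteins and SEC62 (10.4%) of 18 genes for the translocon, oligosaccharyltransferase and cargo receptors. ARL1 and RAB2A act at the Golgi, SNX4 and VPS45 on endosomes, and SEC62 in protein import into the endoplasmic reticulum. None of 19 V-ATPase subunits was stable. Chaperones gave dnajc18 (12.1%) and CCT6B (12.8%), of 32 genes with a median CV of 29.6% and a range up to 105% in HSP90AA1. None of 29 genes for protein phosphatases 1, 2A, 4 and 6 was stable, although their median CV of 22.3% was under that of all genes, and none of 10 genes for 14-3-3 proteins (median CV 32.6%) or 16 autophagy genes (median CV 30.3%).

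The lists of nuclear-encoded respiratory chain subunits, of hormone response and of single tissues held no stable gene. Of 73 nuclear-encoded subunits of oxidative phosphorylation 0 were stable, with a median CV of 38.6% and the lowest, cox6a1, at 20.8%. Of 12 genes for the glucocorticoid receptor pathway 0 were stable (median CV 49.7%). The receptor gene NR3C1 itself had a CV of 20.9%, whereas its target tsc22d3 had 42.2% and averaged 356 CPM on D7 and 101 CPM on D3. Of 87 genes restricted to single tissues, such as muscle, lens, blood, pancreas, liver, retina and skin, 0 were stable (median CV 39.3%). The least variable of these was mbpb (17.4%) and the most variable apoa1a (106%), which encodes a plasma apolipoprotein and was at 483 CPM on D7 and 3923 CPM on D3. In all, 13 of the 28 lists held no stable gene.

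**Figure D3:**
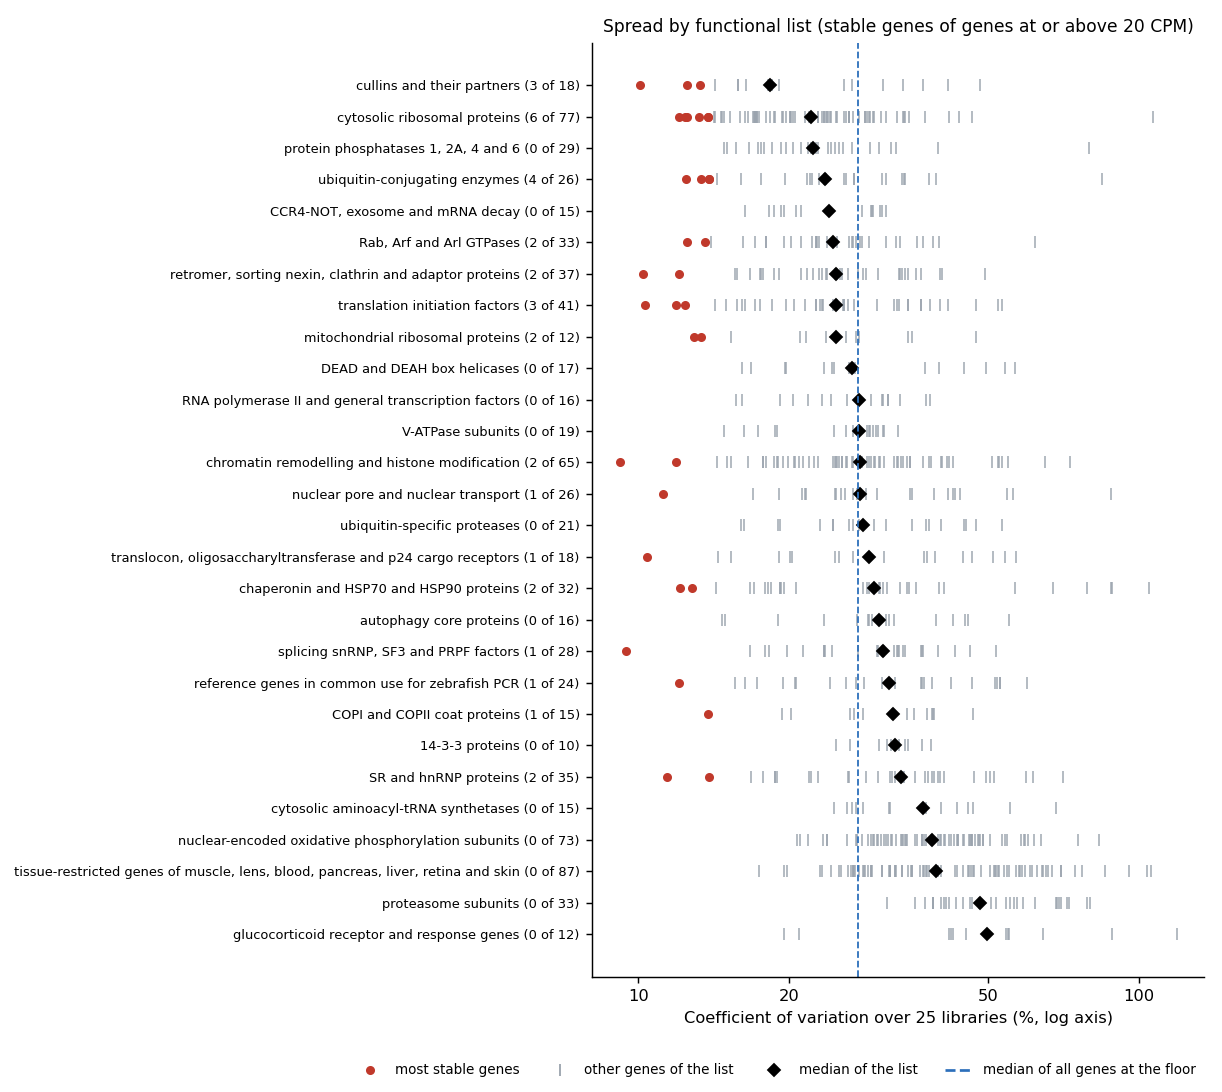
Coefficient of variation over the 25 libraries (%, log axis) of each gene at the floor in 28 lists of genes of known function, with stable genes as red dots, the other genes as grey ticks, the list's median as a black diamond and the median of all 4223 genes (27.5%) as a dashed line. Cullins and their partners have the lowest median (18.3%), and proteasome subunits (48.2%) and glucocorticoid genes (49.7%) the highest.

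Most stable genes belonged to none of these lists. As the share of the 4223 genes in none of them was not counted, this is not read as a trait of the stable genes. A further 8 lists were drawn up after the names of the stable genes had been seen, so their counts describe the choice and nothing else. Of 27 genes for Golgi tethering and trafficking 13 were stable, and the list's median CV was 15.1%. They include 2 genes that share the symbol GOLPH3, ENSDARG00000052851 (10.5%) and ENSDARG00000044225 (10.8%), which hold Golgi membranes in shape, the tether COG3 (13.2%), USO1 (13.3%) and YIPF3 (11.7%). Of 31 genes for endosomal SNAREs, ESCRT and Rab regulators 7 were stable, among them rabgap1l, STX12 and RABGEF1, all at 10.03% to 10.3%. Of 22 protein kinases and adaptors of growth factor signalling 8 were stable (median CV 19.2%), among them MAP2K1 (9.46%), MAP3K7 (10.8%) and YES1 (10.9%). Of 4 subunits of AMP-activated kinase 3 were stable, PRKAG2, PRKAB1 (ENSDARG00000044183, 13.5%) and PRKAA1 (13.7%). Calcineurin and CaM kinase II gave 3 of 11, phosphoinositide enzymes 3 of 19, protein kinases C and D 3 of 7 and mitochondrially encoded genes 1 of 13. The other 127 stable genes were in no list. They include fth1a (13.6%), the iron-storing ferritin heavy chain, CDC42 (13.7%), a small GTPase of the cytoskeleton, SIRT2 (12.7%), a deacetylase, and OPA1 (11.2%), which fuses inner mitochondrial membranes.

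Reference genes in common use for zebrafish PCR were looked up singly. Of 24 such genes at the floor 1 was stable, RPL8, which stood at rank 90 of 4223. Next came ubc (15.6%, rank 352), which encodes polyubiquitin, lsm12b (16.3%, rank 427) and RPS18 (17.3%, rank 532). The elongation factor gene eef1a1l1 had 19.4% (rank 822), RPL13A 20.6% and GAPDH 20.6%. Between GAPDH and the median of all genes lay actb2 (24.2%), UBE2A (26.01%) and TMEM50A (27.3%). The other 14 lay above that median, from GAPDHS (28.2%), HPRT1 (30.7%) and MOB4 (32.6%) through EIF1B (36.8%), ywhaz (36.9%), ppiab (37.2%), SDHA (38.6%), ppiaa (42.1%) and tuba1c (46.5%) to UBB (51.6%), NONO (52.2%), ubb (52.8%), TUBA1A (52.96%) and actb1 (59.9%). A further 7 genes were under 20 CPM in some library and could not enter, with CVs of 19.1% in TBP, 22.2% in RNMT, 33.7% in POLR2D, 58.5% in GUSB, 59.7% in tuba1b, 60.9% in b2m and 69.4% in tfr1a.

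The spread of the reference genes had different shapes. Actb1, a cytoskeletal beta actin gene, measured 2894, 3174 and 3399.8 CPM on D3, 2293, 1781 and 3396 CPM on D4, 1737, 1795 and 3449 CPM on D5, 1203, 1381 and 4938 CPM on D6 and 1079, 1016 and 1997 CPM on D7. In the second table actb1 measured 1099, 1066, 1086, 849 and 969 CPM in crispants, against 1121, 1112, 1179, 912 and 835 CPM in WT larvae. On each day the c library of actb1 was the highest, and the crispant and WT libraries lay under most of the course. Eef1a1l1 measured 8149, 9870.1 and 9673 CPM on D3, 7886, 6165 and 9971 CPM on D4, 8183, 10593 and 11090.4 CPM on D5, 10173, 10203 and 12113 CPM on D6 and 10125, 8904 and 14827 CPM on D7. It measured 13069, 13034, 13164, 12647 and 12479 CPM in crispants, against 12908, 12796, 13616, 12279.6 and 12327 CPM in WT larvae, a spread of only 3.23% in the second table, beside 20.3% in the course. Likewise actb2 had 2.48% in the second table and 31.1% in the course. MOB4, in turn, varied by 12.8% within the course and 9.15% within the second table, and the mean of the second table was 0.515 times that of the course.

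**Figure D4:**
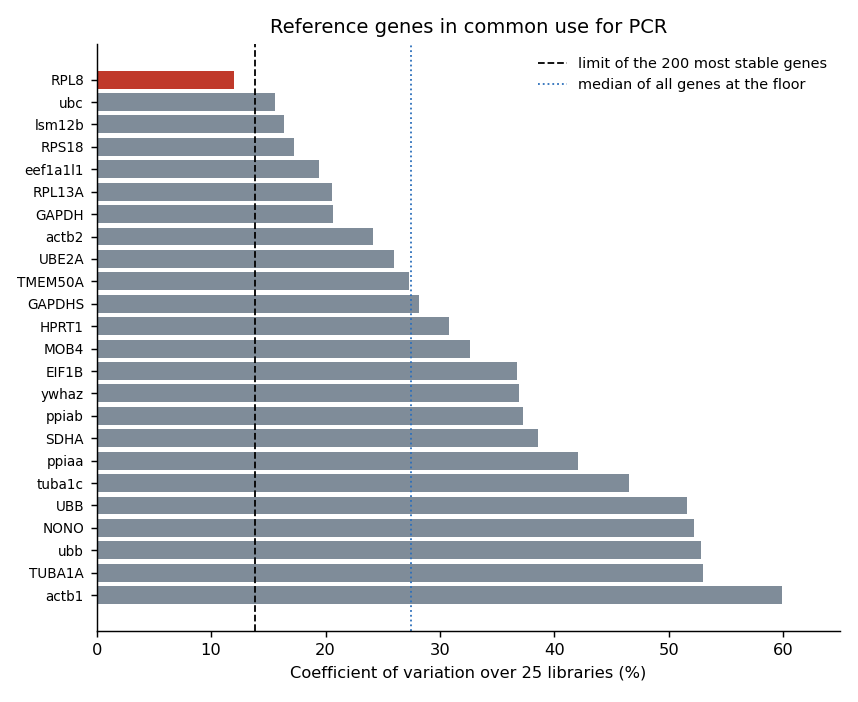
Coefficient of variation over the 25 libraries (%, bars from 0) of 24 reference genes in common use for zebrafish PCR that were at or above 20 CPM in every library, with the limit of the stable genes (13.9%) as a dashed line and the median of all 4223 genes (27.5%) as a dotted line. RPL8 (red, 12.04%) is the only bar under the limit, and actb1 is the longest at 59.9%.

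Within the stable genes the remaining variation was divided by sums of squares of log2 CPM. The median share of a gene's sum of squares within groups was 57.8%, against 21.1% between days, 8.48% between the tables and 1.51% between crispants and WT larvae. For all 4223 genes the same medians were 40.5%, 23.9%, 18.9% and 0.626%. These shares were not divided by degrees of freedom, most of which lie within groups, so they do not rank the sources of variation. The share within groups also holds any difference between the sets and between the column letters. The mean of the second table divided by that of the course ran from 0.771 in PAIP2B to 1.24 in DEDD, with a median of 0.981. PAIP2B, an inhibitor of the poly(A)-binding protein, was steady in each table at a different level. It measured 141, 147 and 141 CPM on D3, 128, 142 and 135 CPM on D4, 134, 118 and 138 CPM on D5, 135, 129 and 132 CPM on D6 and 137, 136 and 138 CPM on D7. In the second table it measured 99.4, 103, 107, 107 and 104 CPM in crispants, against 106, 106, 112, 102 and 97.9 CPM in WT larvae, so all 10 libraries lay below all 15 of the course. Its CV was 5.18% in the course, the lowest of the stable genes, and 3.84% in the second table. The reverse case was PLPP1, a lipid phosphatase, with 10.3% in the course and 18.3% in the second table.

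The libraries that set the extremes were unevenly spread. The c library of D7 was the lowest of the 25 for 39 stable genes and the highest for 16, and the c library of D6 was the highest for 30 and the lowest for 10. The a library of D3 was the highest for 21 and the b library of D4 the lowest for 21. No crispant or WT library was the highest for more than 7 or the lowest for more than 10. The extremes were not counted over the 4223 genes, so this unevenness is not read as a trait of the stable genes. The c library lay farthest from the day's other libraries in 48.5% of the stable genes on D3 (beside 63.2% of the 4223), 40% on D4 (beside 40.4%), 35.5% on D5 (beside 46.1%), 38% on D6 (beside 60.6%) and 65.5% on D7 (beside 77.7%). The c library of D7 also had the lowest TMM scaling factor (a factor that corrects library totals for a few abundant transcripts), 0.767, against up to 1.11 in the course. The part of this library in the results was not tested beyond leaving it out. Without the c libraries of D6 and D7, which was tried after seeing the data, the same rule gave 131 of the same 200 genes.

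The choice depended on the scaling. With TMM-scaled CPM in place of CPM, 95 of the 200 were chosen again, and with median-of-ratios size factors 107. C19H6orf62 was kept under both, although its CV became 13.3% (rank 126) with TMM scaling. Of the 10 genes of lowest CV, dlg1a then had the lowest (9.31%, rank 10). TMBIM6 had the highest (16.8%, rank 409) and was not among the 200 chosen. The CV of RPL8 became 18.8% (rank 636) with TMM scaling and that of ubc 17.96%, and 0 of 77 ribosomal protein genes and 0 of 33 proteasome subunits were then chosen. Cullins and their partners then had a median CV of 25.2%, beside 25.8% for Rab, Arf and Arl GTPases and 29.3% for all genes at the floor. Proteasome subunits (55.4%) and glucocorticoid genes (50.9%) stayed the highest. Lists without a stable gene could hold chosen genes under TMM scaling, such as 2 of 31 protein phosphatases and 1 of 14 mRNA decay genes. Over 10 other versions of the rule, both scalings included, between 24 and 184 of the 200 were chosen again. By all 10, 0 genes were kept, and 38 genes were kept by 8 or more. The version with a floor of 50 CPM could not keep the 100 stable genes with a mean under 50 CPM. C19H6orf62 was kept by 9 of the 10, all except the choice on crispant and WT libraries alone.

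Changes over the DEX course were tested on all genes, and the stable genes were then looked up. Since these libraries chose the genes, the counts are no evidence about them. With each day set against the other 4 days, edgeR's quasi-likelihood test with Benjamini-Hochberg adjustment called 0 of the 200, beside 7.95% of all 21750 genes tested. At an unadjusted p under 0.05 there were 37 of the 200, beside 9703 of all 21750, and DESeq2 called 14, beside 22.7% of all genes. Among all genes edgeR's calls were 1716 for D3, 13 for D7 and 0 for D4, D5 and D6. For D4, D5 and D6 a count of 0 stable genes was therefore given. These fits pooled the other 4 days, so differences among those days counted as spread between replicates. The 0 calls do not show that D4, D5 and D6 were unchanged. In a model of all 5 days, with each day against the mean of the others, 8 of the 200 were called, beside 23.6% of all genes. For D7 against D3 in a model of all 5 days, edgeR called 9 of the 200, all higher on D7, beside 25.3% of all genes called in either direction and 11.8% called higher, and DESeq2 called 19, beside 29.9%.

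The largest fitted rise was that of MT-CO2, with a log2 fold change of 0.78 ± 0.25 (SE, edgeR, adjusted p = 0.0364). It measured 5822, 6306 and 6846 CPM on D7, against 3623, 3773 and 4866 CPM on D3. Si:dkey-118j18.2 (ENSDARG00000096457) followed, with 36.96, 35.2 and 34.98 CPM on D7, against 24.1, 24.9 and 26.3 CPM on D3 (log2 fold change 0.66 ± 0.17, edgeR adjusted p = 0.0111). YIPF4, a Golgi membrane protein gene, had 57.9, 60.6 and 60.5 CPM on D7, against 41.6, 43.8 and 41.4 CPM on D3 (log2 fold change 0.65 ± 0.17, edgeR adjusted p = 0.0149). In all 3 genes every D7 library was above every D3 library, but they were picked as the largest fitted rises in these libraries. The share of all genes with such a separation, in either direction, was not counted. The other 6 calls were UBE2Q2, COG3, si:ch73-22o12.1, ARRB2, ndrg3a and MARCHF6, with log2 fold changes between 0.46 and 0.62, named here after their values were seen.

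None of the fitted falls passed edgeR's test with TMM scaling. DESeq2 called 18 of the 200 higher on D7 and 1 lower, beside 14.7% and 15.2% of all genes. The largest falls fitted by edgeR were in prcc, a gene linked to pre-mRNA splicing, TM9SF2, a membrane protein of the Golgi and endosomes, and MLF2. Prcc measured 42.9, 44.4 and 33.9 CPM on D7, against 58.9, 55.4 and 51.2 CPM on D3 (log2 fold change -0.31, edgeR adjusted p = 0.116). TM9SF2 measured 101, 95.9 and 94.2 CPM on D7, against 139, 130.3 and 129 CPM on D3 (log2 fold change -0.30, edgeR adjusted p = 0.273). MLF2 measured 105, 109 and 97.7 CPM on D7, against 144, 154 and 126 CPM on D3 (log2 fold change -0.30, edgeR adjusted p = 0.26). In CPM all D7 libraries of these 3 genes, picked as the largest fitted falls, lay below all D3 libraries. The fitted changes moved with the scaling. With TMM factors the median log2 fold change of D7 over D3 was 0.056 over all 21750 genes and 0.095 over the stable genes, and with library totals as scaling, tried after seeing the data, it was -0.081 and -0.056. With library totals 6 of the 200 were called, beside 25.3% of all genes, 4 higher (MT-CO2, si:dkey-118j18.2, YIPF4 and UBE2Q2) and 2 lower on D7, MLF2 (log2 fold change -0.45, edgeR adjusted p = 0.0435) and plagx (log2 fold change -0.47). Leaving out single libraries of the course gave 0 to 13 calls, with 0 without the a library of D3, 3 without the b library of D3, 3 without the a library of D4, 5 without the b library of D6 and 6 to 13 without any other.

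Between crispants and WT larvae 0 of the 200 were called at an adjusted p under 0.05 and an absolute log2 fold change above 0.3, beside 0.168% of all 23222 genes tested by edgeR. At an unadjusted p under 0.05 there were 10 of the 200, beside 2738 of all 23222, and DESeq2 called 0, beside 2.28% of all genes. In a model with a term for the set, 1 of the 200 was called, ccnl1b (edgeR adjusted p = 0.018), beside 5.18% of all genes, and EML1 and UBE2Q2 had adjusted p-values of 0.0425 and 0.0268 at log2 fold changes of -0.29 and -0.29, short of the fold limit. The fitted log2 fold changes of the stable genes ran from -0.31 to 0.24 with a median of 0.0018. The lowest was that of ccnl1b, a cyclin of pre-mRNA splicing, which measured 51.9, 52.3, 50.97, 48.8 and 54.9 CPM in crispants, against 62.4, 58.2, 61.6, 72.6 and 66.3 CPM in WT larvae (log2 fold change -0.31 ± 0.08, edgeR adjusted p = 0.177). All 5 crispant libraries were below all 5 WT libraries. Within the sets its log2 fold change was -0.21 in the first and -0.42 in the second. The genes named for this comparison were picked as the largest fitted changes in these libraries. The share of all genes whose groups did not overlap was not counted. EML1, a microtubule-binding protein gene, measured 43.3, 41.5, 42.8, 50.7 and 52.04 CPM in crispants, against 58.5, 59.7, 56.5, 52.5 and 53.2 CPM in WT larvae (log2 fold change -0.29, edgeR adjusted p = 0.243), with all crispants below all WT libraries. UBE2Q2 measured 63.4, 63.97, 62.1, 91.6 and 89.6 CPM in crispants, against 83.8, 88.9, 82.3, 97.7 and 94.2 CPM in WT larvae (log2 fold change -0.27, edgeR adjusted p = 0.407), and here the groups overlapped. In the first set alone the log2 fold change was -0.43 for EML1 and -0.41 for UBE2Q2, and in the second set it was -0.04 and -0.08.

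At the other end were TRA2A, fth1a and slc35a4. TRA2A measured 117, 109, 112, 90.2 and 80.3 CPM in crispants, against 82.4, 82.95, 80.98, 91.3 and 93.3 CPM in WT larvae (log2 fold change 0.24, edgeR adjusted p = 0.464). Fth1a measured 1005, 974, 1016, 759 and 802 CPM in crispants, against 721, 708, 771, 813 and 849 CPM in WT larvae (log2 fold change 0.24, edgeR adjusted p = 0.431). In both genes the sets went opposite ways. The log2 fold change of TRA2A was 0.48 in the first and -0.11 in the second, and that of fth1a 0.46 and -0.09, a difference between the sets that was not tested. Slc35a4 measured 36.8, 37.3, 41.7, 37.1 and 37.2 CPM in crispants, against 31.6, 31.6, 29.5, 34.95 and 34.4 CPM in WT larvae, with all crispant libraries above all WT libraries (log2 fold change 0.23, edgeR adjusted p = 0.291). Its log2 fold change was 0.34 in the first and 0.10 in the second. Within the first set alone, a choice made after seeing the data, 10 of the 200 were called, beside 22.1% of all genes tested, and within the second set 1, ccnl1b, beside 3.05%.

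A reading that the choice did not use was obtained by choosing on some libraries and measuring on others. It describes the rule and not the 200 stable genes, most of which were not chosen this way. Of the stable genes, 90 were chosen again on the course and 24 on the crispant and WT libraries. When the rule was applied to the 15 libraries of the course alone, 4515 genes reached the floor in these 15 and 200 of them were chosen. Their median CV in the 10 crispant and WT libraries was 9.93%, beside 13.6% for all 4515, and 150 of the 200 lay below that median. Of the 200, 85 fell in the lowest quartile of CV and 14 in the highest in the second table. When the rule was applied to the 10 crispant and WT libraries, the 200 chosen genes had a median CV of 21.3% in the course, beside 28.0% for all 5969 at the floor in those 10, with 146 below that median, 95 in the lowest quartile and 18 in the highest. Across genes the CVs of the tables were weakly related, with Spearman's rho of 0.262 over the 4515 genes and 0.316 over the 5969. Genes are not independent replicates, and both CVs of a gene share its level.

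**Figure D5:**
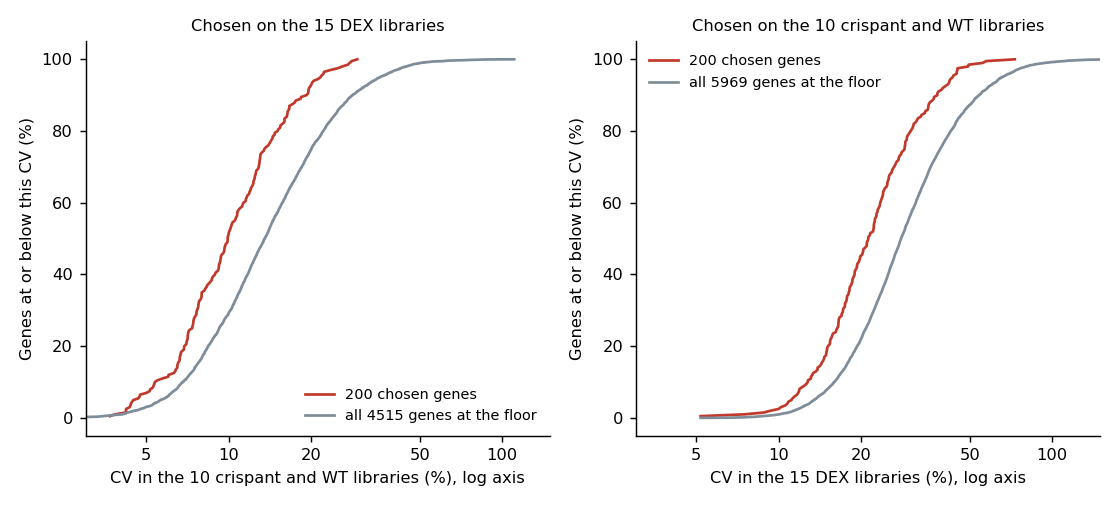
Cumulative share of genes (%) against the CV in libraries that were not used for the choice (%, log axis), for 200 genes chosen on the other table (red) and for all genes at the floor (grey). The chosen genes include 90 (left) and 24 (right) of the 200 stable genes. Left, chosen on the DEX course and read in crispant and WT libraries (median 9.93% for the chosen genes, 13.6% for all); right, the reverse (21.3% and 28.0%).

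Choosing on either table, from 4515 and 5969 genes at the floor, gave 17 genes in common, 8.5% of each list. Whether 17 is more than chance would give was not tested. Of the 17, 8 were among the 200 stable genes, namely TRPC4AP, NVL, PPM1L, MAP3K7, eif3ea, RMND5B, TBC1D23 and PAIP2B. The stable genes were themselves chosen on the libraries of both tables, so the presence of these 8 follows in part from the rule. Eif3ea had a CV of 9.99% in the course and 4.40% in the second table, and NVL, an ATPase of ribosome assembly, 11.9% and 4.69%. Of the 8, PAIP2B had a mean in the second table of 0.771 times that of the course. The other 9 were also steady within each table, but their CV over all 25 libraries was above the limit of the stable genes. They include MDM4, a partner of p53, whose mean in the second table was 1.31 times that of the course, the polycomb subunit gene SUZ12 (1.32 times), VDAC3 (0.813 times), CCT7 (0.690 times) and ABLIM3 (1.56 times). All 17 were named after their values were seen.

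Each library was also left out of the choice in turn and then read. The other 24 libraries included those of its own group, so this reading was not independent of the choice. The 200 genes chosen without a library deviated there from their mean in the other 24 by a median of 6.97% to 19.9%, beside 11.3% to 32.1% for all genes at the floor, and the chosen genes were closer in each of the 25 libraries. The b library of D6 was the closest at 6.97%. The c library of D7 (19.9%) and the c library of D6 (17.4%) were the farthest, with 14 and 28 of the 200 off by more than 50%, against at most 2 in any other library. These are 7% and 14% of the chosen genes, beside 16.9% and 30.1% of all genes at the floor. Over all genes at the floor this share was also high in other libraries, with 23.6% in the a library of D3 and 22.4% in the b library of D3. In crispant libraries the median deviation was 7.95% to 9.52% and in WT libraries 7.92% to 8.35%.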

How the data were processed

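RNA of whole zebrafish larvae was sequenced by the authors as paired-end reads. Per the labels and the study's methods, the authors used Trim Galore for trimming, STAR (2.7.8) for alignment to GRCz11 and HTSeq (0.13.5) to obtain counts per gene. They deposited raw counts without normalization in 2 tables of 32520 Ensembl genes, 1 for the DEX course and 1 for crispants and WT larvae. The annotation release and the strand setting are not given in the sources used here, so overlapping genes and near-identical copies are uncertain, and 30 of the 200 stable genes share their symbol with another gene. Gene symbols came from a table of names, which matched 29201 identifiers. All 25 columns of counts were used and 0 were left out. Crispant columns whose header names occur a second time were used as members of the group without a number.

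CPM was computed from column totals (Python 3.11.15, pandas 2.3.3), and the 200 genes were chosen as described in the report. Tests used R (4.3.3) with edgeR (4.0.16): filterByExpr, TMM scaling and quasi-likelihood tests on all genes of a table, with Benjamini-Hochberg adjustment at 0.05 and, for crispants, an absolute log2 fold change above 0.3. D7 was set against D3 in a model of all 15 libraries. DESeq2 (1.42.0), RLE scaling, no filter, other versions of the rule, the column letter as a block and leaving out each library were alternatives. In simulated counts all 200 changed genes were recovered. Whether changes as small as those fitted in the stable genes would be found in libraries that differ as these do was not tested. Counting errors cover counting only. Every pair of libraries within a group differed by more than sampling noise, with squared differences of counts at least 4.41 times those of sampling.

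The members, the lists and the tests were chosen with earlier results of these data known, and 8 of the lists after the stable genes had been seen. Named were the 10 genes of lowest CV, the 5 of highest and the 5 of lowest mean, the 5 on either side of the limit, the 3 stable genes of lowest CV of each list, all reference genes (some are not reported here) and the 3 largest fitted rises and falls of D7 against D3 and of crispants against WT. Other genes were named after their values were seen, for example as the extreme of a list.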

Additional observations from a re-analysis of the deposited data

Results flagged for a closer look

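In groups of 5 libraries, single values far from the other 4 were sought (a gap over 0.71 of the group's range). The genes searched were the stable genes of lowest CV, from C19H6orf62 to EPB41L5, and the reference genes at the floor. Any other stable gene, named above or not, was not searched. Of 68 groups 5 held such a value, where chance gives about 1 in 20. Slc35a4 was 41.7 CPM in crispant 3, against 36.8 to 37.3 CPM in the other crispants. The reference gene ubc was 855 CPM in crispant 4, against 942 to 960.3 CPM in the others. In crispant 5, ppiab was 287 CPM, against 251 to 261 CPM, tuba1c 460.0 CPM, against 385 to 405 CPM, and TUBA1A 195 CPM, against 145 to 158 CPM in the others. Of the genes with such a value, only slc35a4 belongs to the 200 stable genes, most of which were not searched.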

How the results depend on the processing

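The rule was applied in other ways, and the number of the 200 stable genes that it chose again was counted. It was 95 with TMM-scaled CPM, 107 with size factors, 64 with a floor of 50 CPM, 91 with the median absolute deviation over the median, 90 on the course alone, 24 on crispant and WT libraries alone, 109 with the spread within tables only, 95 without the c libraries of the course and, chosen after seeing the data, 131 without the c libraries of D6 and D7. Leaving out single libraries gave 154 (without the c library of D6) to 196. Without the first set of crispant and WT libraries 138 were chosen again and without the second set 155, both choices made after seeing the data. A floor of 50 CPM could not choose the 100 stable genes with a mean under 50 CPM. The cause of the other shifts was not tested. For each day against the other 4, members called were 8 in a five-group model, 14 with DESeq2, 8 with the a and b libraries only (chosen after seeing the data) and 0 to 5 without single libraries, against 0. For D7 against D3 they were 19 with DESeq2, 2 without a filter, 26 with the a and b libraries only (chosen after seeing the data) and 0 to 13 without single libraries, against 9. For crispants against WT they were 1 with the set as a term, 10 within the first set alone and 1 within the second (both chosen after seeing the data), 0 without any single library and 0 otherwise. Of all genes tested, the share called for each day against the other 4 was 23.6% in the five-group model, 27.1% with the a and b libraries only and 0.118% to 17.8% without single libraries. For D7 against D3 it was 16.8% without a filter, 51% with the a and b libraries only and 14.9% to 29.3% without single libraries, and for crispants against WT 5.18% with the set as a term and 0.0384% to 0.67% without single libraries. Members in a list numbered 22 with TMM scaling, against 32. Counting alone would give a stable gene a CV of up to 4.46%.

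With the column letter as a replicate block, 2 of the 200 were called for each day against the others and 16 for D7 against D3, beside 14.1% and 36.5% of all genes. Between days, libraries of 1 letter had deviations from the mean of their day that correlated at 0.422 on average over 30 pairs. The lowest was 0.0725 and 29 were over 0.1, so libraries of 1 letter shared part of their deviation. Over the 10 pairs of c libraries the mean was 0.558. No label says what the letters stand for, and the main fits did not include them. For crispants against WT no paired analysis was possible because the crispant columns carry no number of their own.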
